A study of Mus musculus with 12 samples.

Results

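The 10 sinusoidal endothelial cell genes described here are Stab1, Stab2, Clec4g, Kdr, Pecam1, Fcgr2b, Lyve1, Oit3, Ptprb and Dnase1l3. They were taken by gene name from a table of 35275 genes, in which each had 1 row. RNA sequencing was done on mouse liver in 4 groups of 3 libraries, called biological replicates in the series' design text. The groups are a liver knockout of Hnf4a on high fat diet (KO HFD), the knockout on vivarium chow (KO chow), wild type on high fat diet (WT HFD) and wild type on vivarium chow (WT chow). Hnf4a encodes a nuclear receptor that controls many genes of the hepatocyte. The promoter driving the deletion, the strain, age and sex of the animals, the length of feeding and whether animals were pooled are not given here.

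Liver sinusoidal endothelial cells line the capillaries of the liver lobule and have open pores and no continuous basement membrane. They clear waste from the blood through scavenger, lectin and Fc receptors, and they are maintained in part by vascular endothelial growth factor (VEGF) made by hepatocytes. Some of the genes named above mark this cell type within the liver, while Pecam1, Kdr and Ptprb are expressed by endothelium in general, and Lyve1 also marks lymphatic vessels.

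For 3 of the genes that the library WT chow 3 set apart from the rest, the 250 bases upstream of the RefSeq start (GRCm38.p6) are given, 5′ to 3′ on the strand of the gene. Stab2 and Clec4g had 1 and 0 reads in WT chow 3, while Kdr stood at 385% of the median of 10 other libraries there. The sequences lie at chr10:87007943-87008192 (Stab2, minus strand), chr8:3720652-3720901 (Clec4g, minus strand) and chr5:75978456-75978705 (Kdr, minus strand). Capitals mark GGAA, the core of the site read by ETS transcription factors, and its reverse complement TTCC.
Stab2: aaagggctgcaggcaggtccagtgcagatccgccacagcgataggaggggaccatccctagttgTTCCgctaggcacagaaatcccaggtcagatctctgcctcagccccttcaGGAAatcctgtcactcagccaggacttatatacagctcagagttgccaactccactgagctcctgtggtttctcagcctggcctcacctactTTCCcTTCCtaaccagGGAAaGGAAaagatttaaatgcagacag
Clec4g: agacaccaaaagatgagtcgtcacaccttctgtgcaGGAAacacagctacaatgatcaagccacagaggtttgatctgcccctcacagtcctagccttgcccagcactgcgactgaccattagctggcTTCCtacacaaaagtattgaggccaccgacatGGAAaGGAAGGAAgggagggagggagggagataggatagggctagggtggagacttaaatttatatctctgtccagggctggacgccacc
Kdr: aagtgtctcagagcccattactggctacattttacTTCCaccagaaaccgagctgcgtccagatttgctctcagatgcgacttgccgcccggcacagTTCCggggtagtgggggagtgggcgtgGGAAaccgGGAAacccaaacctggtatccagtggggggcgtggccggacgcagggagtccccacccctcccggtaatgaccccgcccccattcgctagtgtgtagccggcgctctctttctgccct
RefSeq promoters were at hand for 5 of the 10 genes (Stab1, Stab2, Clec4g, Kdr and Fcgr2b). Of these, 5 held a pair of GGAA cores within 20 bases of each other, on either strand, as did 43.8% of 32851 promoters. Motifs were searched over 300 bases, the 250 upstream and the 50 that follow the start. AGATAA, a site read by GATA factors, was found on either strand in 0 of the 5 and in 11.2% of all promoters. A match is a stretch of letters and not a measured binding site.

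The groups are named as labelled, because Hnf4a itself was not consistently lower under the KO label. Hnf4a stood at 108, 98.8 and 138 FPKM in the libraries labelled KO HFD, 158, 132 and 130 FPKM in those labelled KO chow, 133, 116 and 120 FPKM in WT HFD and 126, 75.8 and 0.10 FPKM in WT chow. FPKM is the count of fragments scaled to gene length and to library depth, so that levels of different genes can be compared. Libraries held 15705196 to 20311766 reads on genes. WT chow 3 went against its label as liver: 8 hepatocyte genes summed to 19.0 FPKM there, against 29388 in WT chow 2 and between 36477 and 66057 elsewhere. A set of 8 brown fat and adipocyte genes summed to 15507 FPKM in WT chow 3, against 199 in WT chow 2 and between 34.3 and 103 elsewhere. All 10 endothelial genes had reads in every library except WT chow 3, where Clec4g had 0. Every comparison is therefore given over 12 libraries and over the 10 libraries without WT chow 2 and 3, where WT chow rests on 1 library whose spread is taken from the other groups.

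Stab1 and Stab2 encode the stabilins, large scavenger receptors that take up modified proteins and, in the case of Stab2, hyaluronan. Stab1 (ENSMUSG00000042286, GRCm38 chr14:31139013-31168641, minus strand) stood at 3.03, 2.47 and 2.69 FPKM in KO HFD, 3.58, 3.79 and 2.33 in KO chow, 4.29, 3.05 and 3.01 in WT HFD and 2.51, 4.12 and 2.91 in WT chow. The 4 groups overlapped, and WT chow 3 lay among the other libraries. Stab2 (ENSMUSG00000035459, chr10:86841198-87008025, minus strand) stood at 3.67, 3.16 and 2.10 FPKM in KO HFD, 3.63, 4.43 and 2.14 in KO chow, 4.07, 3.28 and 4.68 in WT HFD and 2.85, 2.91 and 0.0074 in WT chow. All libraries but WT chow 3 held Stab2 at 2.10 FPKM or more, and its value in WT chow 3 rested on 1 read, 0.213% of the median of the 10 libraries. The other stabilin kept 96.2% of that median in the same library, on 384 reads. The span of Stab1 overlaps that of Nt5dc2 on the opposite strand, and the strand setting of the counting is not given in the sources used. Whether any counted reads came from a shared stretch was not tested. The same holds for Stab2 and Clec4g, which overlap predicted genes on the opposite strand.

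Clec4g encodes a C-type lectin of sinusoidal endothelium, and it had the highest level of the 10 genes. Clec4g (ENSMUSG00000074491, chr8:3707064-3720651, minus strand) stood at 16.9, 15.3 and 20.2 FPKM in KO HFD, 15.3, 20.5 and 14.1 in KO chow, 27.0, 19.3 and 11.4 in WT HFD and 15.3, 18.5 and 0 in WT chow. WT HFD alone covered the range of all other libraries except WT chow 3, whose count of 0 allows up to 0.126 FPKM (3 reads, counting error only). Fcgr2b, the inhibitory Fc receptor with which these cells take up immune complexes, came next. Fcgr2b (ENSMUSG00000026656, chr1:170960558-170976547, minus strand) stood at 12.6, 11.8 and 12.1 FPKM in KO HFD, 13.6, 18.8 and 13.1 in KO chow, 19.3, 14.0 and 12.4 in WT HFD and 10.5, 6.18 and 1.35 in WT chow. The 3 WT chow libraries were the 3 lowest of the 12, with WT chow 1, the library with full hepatocyte levels, nearest to the rest.

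Lyve1 and Oit3 encode a hyaluronan receptor and a secreted zona pellucida domain protein. Lyve1 (ENSMUSG00000030787, chr7:110850607-110862953, minus strand) was on average the lowest of the 10 genes, at 2.37, 1.52 and 0.50 FPKM in KO HFD, 1.62, 1.93 and 0.88 in KO chow, 1.60, 1.21 and 2.33 in WT HFD and 0.27, 2.26 and 0.51 in WT chow. It rested on 13 to 112 reads in the 10 libraries and was the most variable of the genes there, with a coefficient of variation of 50.1%. Oit3 (ENSMUSG00000009654, chr10:59422958-59441778, minus strand) stood at 5.26, 3.82 and 3.09 FPKM in KO HFD, 5.68, 6.36 and 3.73 in KO chow, 6.04, 5.26 and 3.64 in WT HFD and 4.38, 4.47 and 0.134 in WT chow. The groups overlapped apart from WT chow 3, where the level rested on 6 reads. Dnase1l3, which encodes a secreted nuclease that digests chromatin in the blood, completes the clearance genes. Dnase1l3 (ENSMUSG00000025279, chr14:7964533-7994573, minus strand) stood at 6.61, 5.98 and 5.58 FPKM in KO HFD, 6.99, 11.2 and 5.18 in KO chow, 11.2, 6.63 and 4.55 in WT HFD and 5.68, 5.62 and 0.153 in WT chow. Apart from WT chow 3, where it rested on 12 reads, the libraries of all groups overlapped.

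Kdr encodes the main VEGF receptor of endothelium, and Ptprb a receptor phosphatase that acts on the endothelial kinase Tek and on cadherin junctions. Kdr (ENSMUSG00000062960, chr5:75932827-75978458, minus strand) stood at 2.85, 3.42 and 2.46 FPKM in KO HFD, 5.61, 7.46 and 3.34 in KO chow, 6.15, 4.45 and 3.92 in WT HFD and 3.33, 1.96 and 14.1 in WT chow. All 3 KO HFD libraries lay below all WT HFD libraries, and 1 of them lay above KO chow 3. Ptprb (ENSMUSG00000020154, chr10:116301374-116389538, plus strand) stood at 1.88, 1.89 and 1.69 FPKM in KO HFD, 4.35, 4.58 and 2.12 in KO chow, 3.91, 2.94 and 2.08 in WT HFD and 2.57, 0.90 and 5.88 in WT chow. The 3 KO HFD values lay within a narrow band below all 6 KO chow and WT HFD values. Pecam1, which encodes an adhesion molecule of endothelial junctions, was the steadiest of the 10 genes over the 10 libraries, with a coefficient of variation of 15.5%. Pecam1 (ENSMUSG00000020717, chr11:106654217-106750628, minus strand) stood at 4.09, 3.40 and 3.13 FPKM in KO HFD, 4.10, 4.59 and 3.31 in KO chow, 4.33, 3.77 and 4.33 in WT HFD and 2.86, 4.83 and 18.5 in WT chow.

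**Figure D1:**
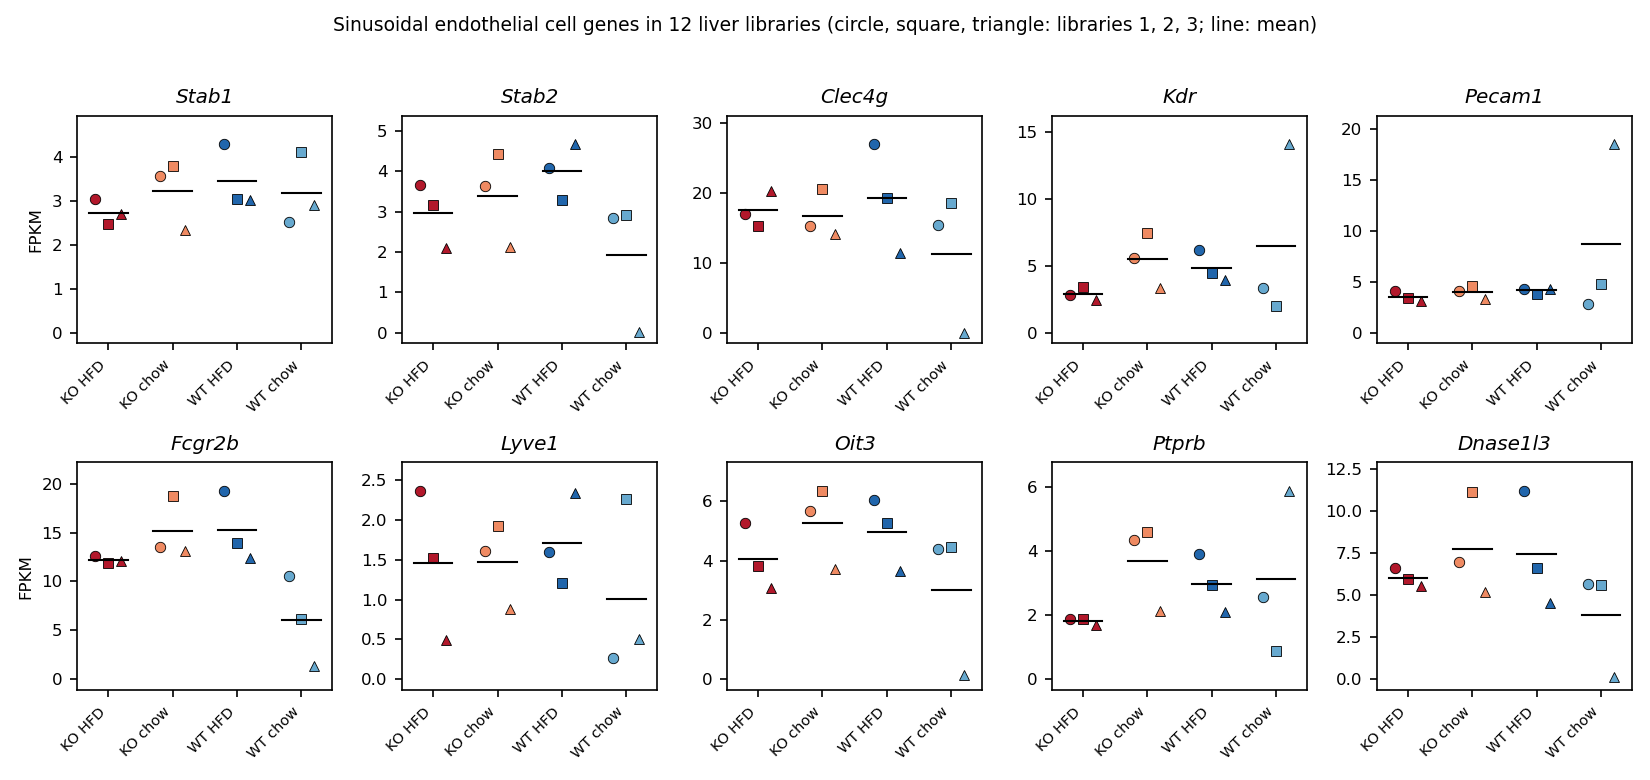
FPKM of each of the 10 genes in every library, with 1 panel a gene, the 4 groups along the x axis and bars for the group means. WT chow 3 is near 0 for Stab2, Clec4g, Oit3 and Dnase1l3 and above every other library for Kdr, Pecam1 and Ptprb.

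In mean FPKM over the 10 libraries the genes ran from Clec4g through Fcgr2b, Dnase1l3, Oit3, Kdr, Pecam1, Stab2, Stab1 and Ptprb to Lyve1. Lyve1 averaged 1.42 FPKM over these libraries. Each gene's range over the 10 libraries overlapped that of the next gene in this order. The libraries differed in the same sense for most of the genes: 10 of 10 lay above their 10-library median in KO chow 2 and in WT HFD 1, and 9 in KO chow 1, while 0 did so in KO HFD 2 and 1 each in KO HFD 3, KO chow 3 and WT chow 1. The rest were KO HFD 1 and WT HFD 2 with 7 each and WT HFD 3 with 4. All genes tested also had a median log2 ratio to the 10-library median in each library. This was 0.062 in KO chow 2, 0.040 in KO chow 1 and −0.0036 in WT HFD 1. In KO HFD 2 and KO HFD 3 it was −0.020 and −0.13. For genes of 5 kb or more it was 0.31 in KO chow 2, 0.24 in KO chow 1 and 0.0034 in WT HFD 1. These long genes stood at −0.14 in KO HFD 2 and −0.30 in KO HFD 3. The part of such shifts in the counts was not tested. Pearson's r of a gene with the mean of the other 9 over these 10 libraries was highest for Stab1 (0.936) and lowest for Clec4g (0.470) and Lyve1 (0.523). These libraries share group and library depth as well as cell content, so the r values are descriptions. In whole liver RNA, fewer cells of a type and less RNA per cell cannot be told apart.

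WT chow 3 divided the genes. Relative to the median of the 10 libraries without WT chow 2 and 3, Stab2 stood at 0.213%, Dnase1l3 at 2.43%, Oit3 at 2.78% and Fcgr2b at 10.5%, while Ptprb stood at 251%, Kdr at 385% and Pecam1 at 472%. With Clec4g at 0 reads, 5 of the 10 genes lay below all 10 libraries, as did 38.5% of the 12251 genes tested, and 3 lay above all 10, as did 25.3%. These shares say that a large part of all genes also stood apart in this library. Of 14 further genes of sinusoidal endothelium, 12 lay below all 10 libraries and 2 (Bmp6 and Dll4) above them. Those below included Gata4, a transcription factor that directs sinusoidal identity, at 0.018 FPKM in WT chow 3, against 2.98 to 6.14 FPKM in the 10 libraries, and Bmp2, a ligand by which these cells signal to hepatocytes, at 0.10 FPKM against 2.27 to 4.96 FPKM. Of 14 genes shared by all endothelium, 11 lay above the 10 libraries and 0 below. Cdh5, the cadherin of endothelial junctions, stood at 19.1 FPKM against 2.11 to 3.93 FPKM. Of 13 genes of continuous, large-vessel and adipose or muscle capillary endothelium, 10 lay above, among them Cd300lg at 26.6 FPKM against 2.37 to 5.71 FPKM and Car4 at 16.9 FPKM against 0 to 0.56 FPKM, and 1, Plvap, lay below at 5.08 FPKM against 9.26 to 20.7 FPKM. The genes named from these lists in WT chow 3 were picked after their values were seen. The hepatocyte and adipocyte sums given above moved with these values, and their part in them was not tested.

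**Figure D2:**
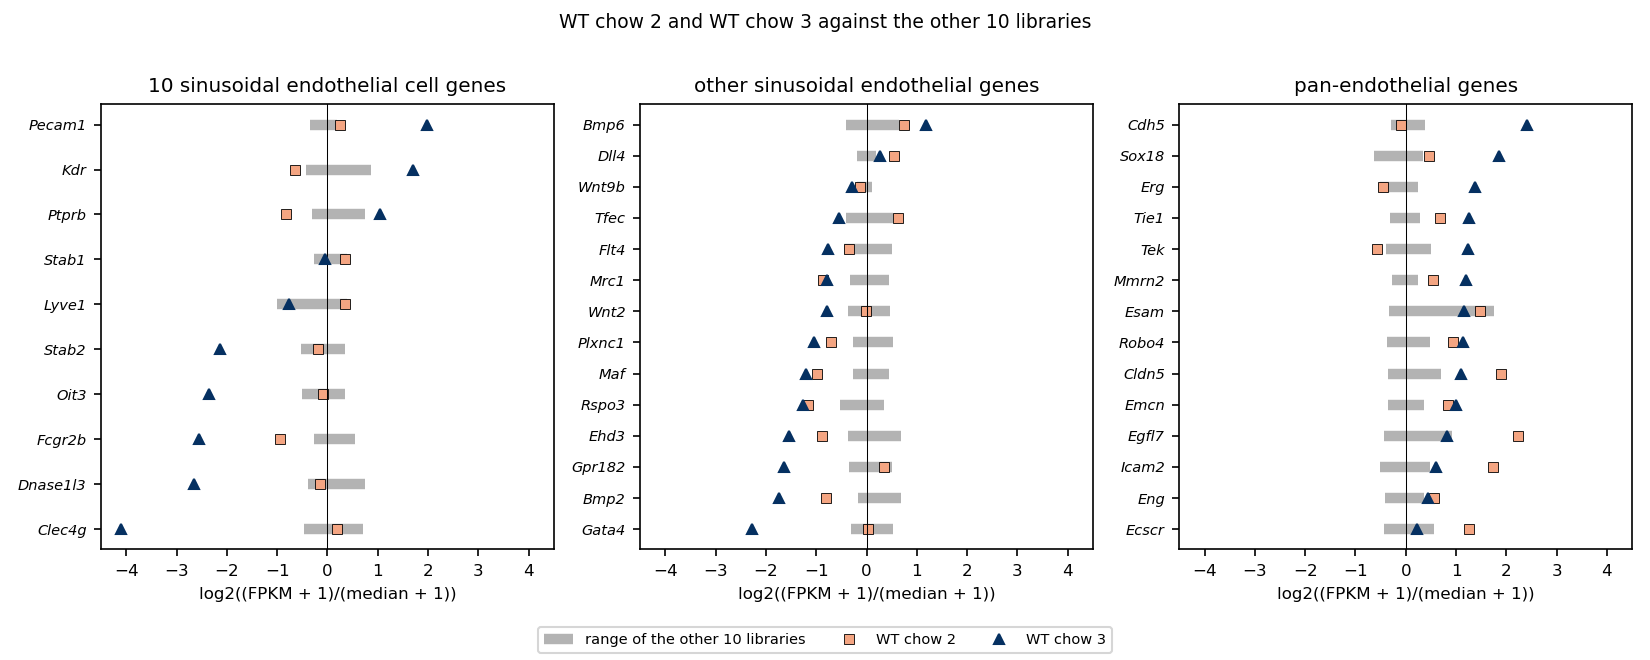
WT chow 2 (squares) and WT chow 3 (triangles) for the 10 genes, 14 further sinusoidal genes and 14 pan-endothelial genes, as the log2 ratio of FPKM + 1 to the median of the other 10 libraries, whose range is the grey bar. In WT chow 3, 5 of the 10 genes and 12 of the 14 further sinusoidal genes lie left of the bar, and 11 of the 14 pan-endothelial genes lie right of it.

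WT chow 2 stood apart in another way. There Ptprb was at 38.2%, Fcgr2b at 47.9% and Kdr at 53.5% of the 10-library median, all 3 below the 10 libraries, as were 34.2% of the genes tested. Pecam1, at 123%, was the 1 gene of the 10 above them, against 31.4% of the genes tested. Stab2, Dnase1l3, Oit3, Clec4g, Stab1 and Lyve1 lay between 84.2% and 145%. Among all genes in WT chow 2, the median log2 ratio to the 10-library median was 0.50 under 1.5 kb and −0.38 at 5 kb or more. Kdr and Ptprb are in the longer class, as are Stab1 and Stab2, and the part of gene length was not tested. The pan-endothelial genes summed to 123 FPKM in WT chow 2 and 115 FPKM in WT chow 3, against 34.9 to 74.1 FPKM in the 10 libraries, with 10 of 14 above all 10 in WT chow 2 and 1, Tek, below them (0.41 FPKM against 0.60 to 1.98 FPKM). Of the 14 further sinusoidal genes, 6 lay below all 10 libraries in WT chow 2 and 3 above them. Macrophage genes differed between these 2 libraries. In WT chow 2, 12 of them summed to 300.2 FPKM, within the 86.6 to 329 FPKM of the 10 libraries. The top of that range was WT HFD 3, and the next library was KO HFD 3 at 239 FPKM. In WT chow 2, 4 of the 12 lay above all 10 libraries, 1 below them and 10 above their median. In WT chow 3 they summed to 41.8 FPKM, below that range, and Vsig4 and Marco were at 0 there.

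The first comparison asks what the knockout label does on high fat diet. All 10 genes (10 of 10) had lower means in KO HFD relative to WT HFD on the log2(FPKM + 1) scale, with a median log2 difference of −0.24, against −0.03 over all 12251 genes. Without WT HFD 1 the median was −0.14, with 2 of the 10 positive, and without WT HFD 3 it was −0.39. Tests were made with limma on that scale, with p adjusted over all genes tested and a threshold of 0.05. None of the 10 passed it, with 0 genes at an unadjusted p under 0.05, where 0.155% of all genes (19) passed. Over 10 libraries 0 of the 10 genes passed and 1 had an unadjusted p under 0.05, where 0.18% of all genes (22) passed. Kdr and Ptprb had the largest differences, and were the only ones of the 10 whose groups did not overlap, which held for 12.4% of all genes in the lower direction. Kdr averaged 2.91 ± 0.48 FPKM in KO HFD and 4.84 ± 1.17 FPKM in WT HFD (SD, n = 3 each), a log2 difference of −0.57 (SE 0.25, 95% interval −1.12 to −0.01) over 10 libraries, with an adjusted p of 0.391 by limma. Ptprb averaged 1.82 ± 0.11 FPKM in KO HFD and 2.98 ± 0.92 FPKM in WT HFD, a difference of −0.47 (SE 0.24, adjusted p = 0.444, limma). Over 12 libraries, whose spread includes WT chow 2 and 3, the adjusted p was 1 for both. For the other 8 the 10-library differences ran from −0.34 (Stab2) to −0.06 (Clec4g). Clec4g, the gene with the highest level, averaged 17.5 ± 2.51 FPKM in KO HFD and 19.2 ± 7.79 FPKM in WT HFD, and its 95% interval of −0.68 to 0.56 leaves room for a change in either direction. Genes of other cell types differed between the same libraries. The 7 stellate cell genes summed to 71.8 to 106 FPKM in KO HFD and 91.5 to 119 FPKM in WT HFD, with 0 of 7 differences positive (median −0.31) and 0 past the threshold by limma. The 6 cardiac muscle genes summed to 1.87 to 2.98 FPKM in KO HFD and 9.65 to 29.5 FPKM in WT HFD (median difference −1.48, 1 of 6 positive, 0 past), with Myh6 and Myl2 at 0 in all 3 KO HFD libraries. The 5 pancreatic acinar genes were Ctrb1, Pnlip, Cpa1, Cel and Cela2a. They summed to 29.7 to 53.5 FPKM in KO HFD and 0.48 to 0.73 FPKM in WT HFD, and 5 of 5 rose (median 1.91). Pnlip, Cpa1 and Cel were at 0 outside KO HFD, and Ctrb1 was at 0 there except in WT chow 1 (4.47 FPKM). Those genes reached the test filter, a mean of at least 0.5 FPKM, only through KO HFD, so their rise is a description. The part of these cell types in the endothelial values was not tested.

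Between the diets under the KO label, Kdr and Ptprb again had the largest differences. Relative to KO chow, 9 of the 10 genes had lower means and Clec4g a higher one in KO HFD (0.08, and −0.11 when rescaled to TPM), with a median log2 difference of −0.21, against −0.06 over all genes. The median rested on single libraries: it was −0.061 without KO chow 2, with 4 of the 10 positive (−0.045 over all genes), and −0.36 without KO chow 3, with 0 positive. By limma 0 of the 10 passed the threshold over 12 libraries, with 0 at an unadjusted p under 0.05, beside 0.155% of all genes (19). Over 10 libraries 0 of the 10 passed with 2 at an unadjusted p under 0.05, beside 7.76% of all genes (951), of which 765 (6.24%) were lower and 186 (1.52%) higher. That background depended on the processing, with 2082 lower and 149 higher when rescaled to TPM and 503 lower and 385 higher with median-of-ratios scaling, and 0 of the 10 genes passed in either. Kdr averaged 2.91 ± 0.48 FPKM in KO HFD and 5.47 ± 2.06 FPKM in KO chow, with a difference of −0.68 (SE 0.25, adjusted p = 0.104, limma over 10 libraries). Ptprb averaged 1.82 ± 0.11 FPKM in KO HFD and 3.68 ± 1.36 FPKM in KO chow, with a difference of −0.68 (SE 0.24, adjusted p = 0.101), and over 12 libraries the adjusted p was 0.731 for Kdr and 0.688 for Ptprb. KO chow 3, the lowest KO chow library for both, changed this call: without it, Kdr differed by −0.94 (adjusted p = 0.0283, limma) and Ptprb by −0.95 (adjusted p = 0.0249), and 1535 genes passed in all, against 17 without KO chow 2 and 18 to 396 without any other 1 of the KO or WT HFD libraries. Ptprb and Fcgr2b were the 2 genes whose groups did not overlap, both lower in KO HFD, as were 21.6% of all genes. Fcgr2b averaged 12.2 ± 0.41 FPKM in KO HFD and 15.2 ± 3.13 FPKM in KO chow, a difference of −0.28 (SE 0.18, adjusted p = 0.357, limma over 10 libraries).

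Other cell types also differed in level between KO HFD and KO chow. The 12 macrophage genes summed to 140 to 239 FPKM in KO HFD and 86.6 to 123 FPKM in KO chow, with 10 of 12 differences positive (median 0.66) and 0 past the threshold by limma. In the 10 libraries none of the defining macrophage genes Clec4f, Vsig4 and Marco was at 0. The pancreatic acinar genes, again at 29.7 to 53.5 FPKM in KO HFD, summed to 0.36 to 0.74 FPKM in KO chow. All 5 of 5 were higher in KO HFD (median log2 difference 1.91). Pnlip, Cpa1, Cel and Ctrb1 reached the test filter only through KO HFD, so their rise is again a description. The cardiac muscle genes summed to 1.87 to 2.98 FPKM in KO HFD and 6.45 to 20.3 FPKM in KO chow (median −1.22, 1 of 6 positive), and 1 of 6, Myl2, fell over 10 libraries and 0 over 12. The stellate cell genes summed to 71.8 to 106 FPKM in KO HFD and 60.6 to 94.5 FPKM in KO chow (median 0.12, 5 of 7 positive, 0 past). The 4 lymphatic genes Prox1, Pdpn, Ccl21a and Mmrn1, of which hepatocytes also express Prox1, summed to 5.60 to 8.93 FPKM in KO HFD and 10.3 to 20.4 FPKM in KO chow. Prox1 carried that sum, at 5.09 to 8.07 FPKM in KO HFD and 9.81 to 19.8 FPKM in KO chow, and each of the other 3 stood at 0.72 FPKM or less in these libraries. The part of these cell types in the endothelial values was not tested.

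**Figure D3:**
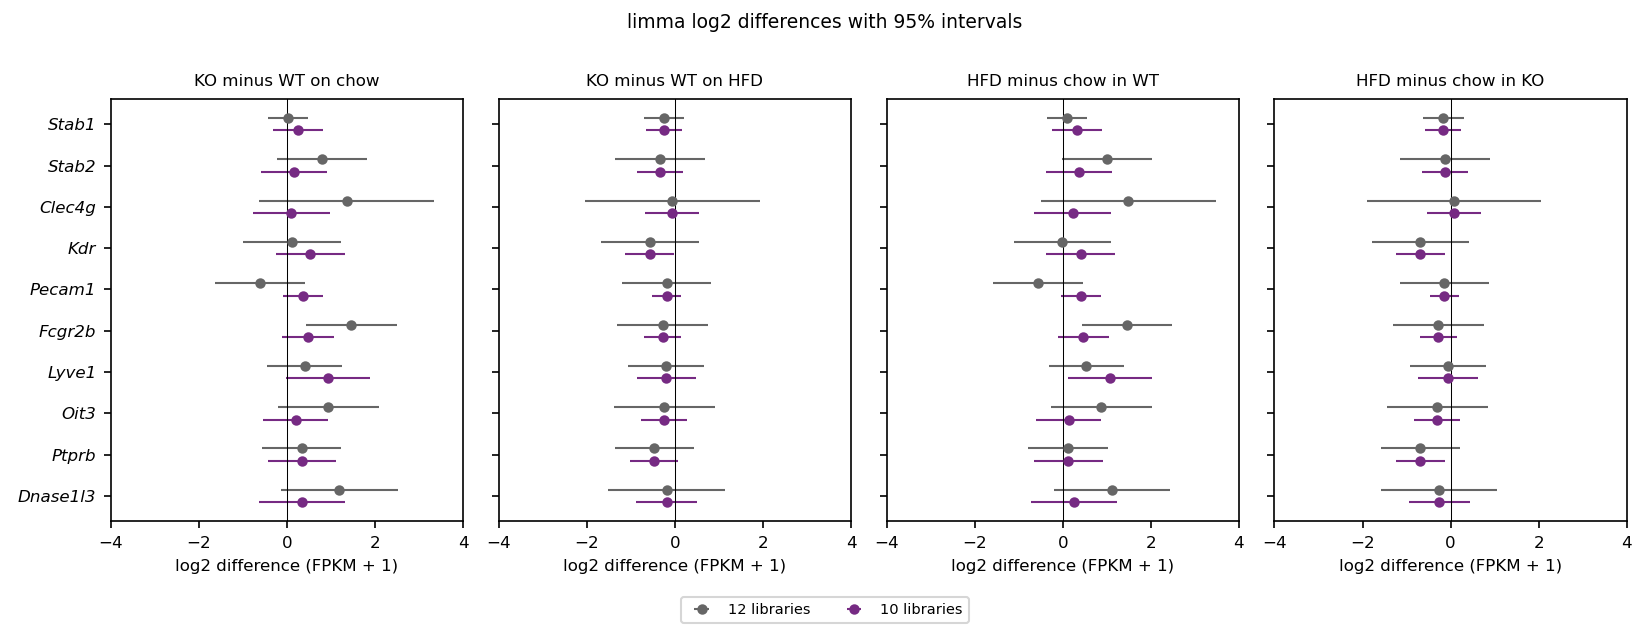
The limma log2 difference of FPKM + 1 for each of the 10 genes in 4 comparisons, with 95% intervals, over 12 libraries and over the 10 libraries without WT chow 2 and 3. In KO minus WT on HFD all 10 points lie at or left of −0.06, and Pecam1 changes sign between the 2 sets of libraries in both panels that use WT chow.

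Gene length moved with the same comparison. Among all genes tested, the median log2 difference in KO HFD relative to KO chow was 0.33 for 2417 genes under 1.5 kb and −0.39 for 2061 genes of 5 kb or more. The counted length is 5924 bases for Kdr, 11912 for Ptprb, 7999 for Stab1 and 8228 for Stab2, which place these 4 among the longest genes, and 1442 bases for Clec4g. In the 10-library fit 20.6% of the genes of 5 kb or more were called lower, beside 1.16% of those under 1.5 kb. Libraries of 1 group differed too: relative to the 10-library median, genes of 5 kb or more had a median of −0.08, −0.14 and −0.30 in KO HFD 1 to 3 and of 0.24, 0.31 and 0.02 in KO chow 1 to 3. Against WT HFD the same classes in KO HFD had medians of 0.21 and −0.19. In KO chow relative to WT chow they were −0.18 and 0.27 over 12 libraries and −0.14 and 0.22 over 10. Stab1 and Stab2, also long, differed by −0.17 and −0.13 in KO HFD relative to KO chow. The part of gene length in the Kdr and Ptprb values was not tested.

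**Figure D4:**
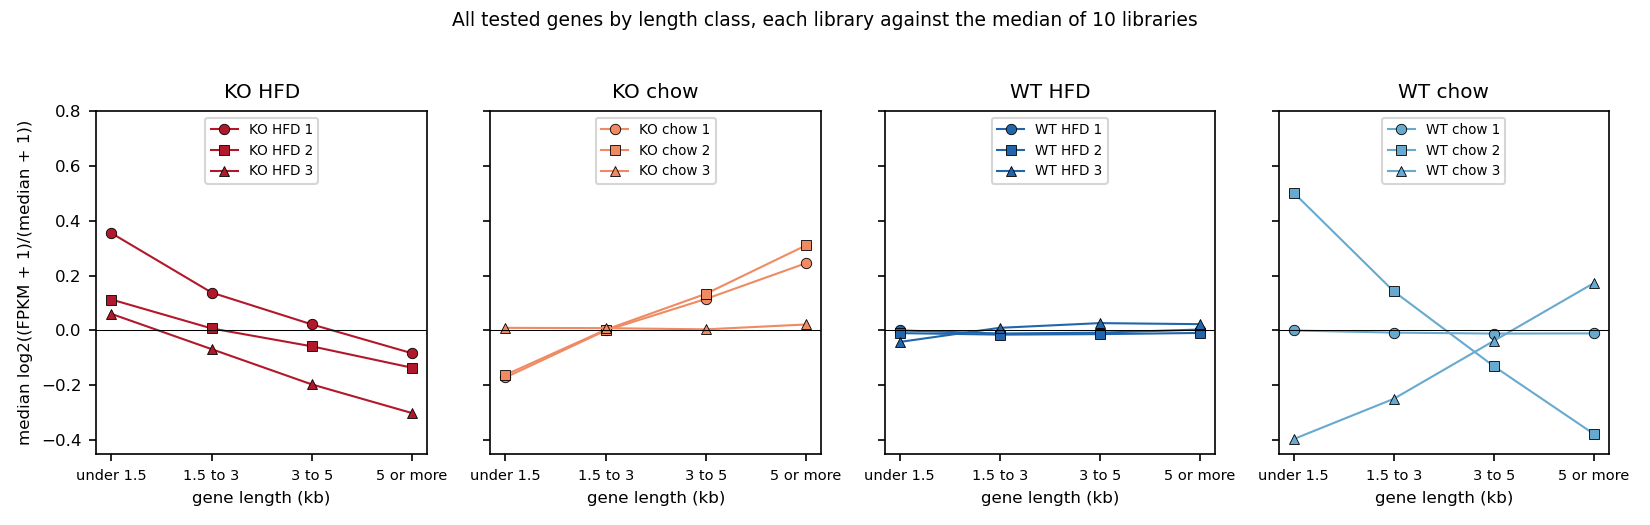
Median log2 ratio of FPKM + 1 to the 10-library median for all tested genes in 4 classes of gene length, with 1 line a library and 1 panel a group. The lines slope down in KO HFD, up in KO chow 1 and 2, and are flat in WT HFD, KO chow 3 and WT chow 1. WT chow 2 is the steepest and slopes down, and WT chow 3 slopes up.

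Of 10 ligands, receptors and co-receptors of VEGF and angiopoietin signalling, 7 were expressed enough to test. Over 12 libraries 0 of the 7 passed in KO HFD relative to KO chow, and over 10 libraries 1 passed, downward. That gene was Vegfa, the ligand of Kdr, which stood at 28.1, 27.9 and 23.1 FPKM in KO HFD, 41.8, 45.8 and 42.7 in KO chow, 46.5, 41.3 and 29.8 in WT HFD and 39.0, 20.9 and 99.8 in WT chow. KO HFD lay below KO chow and WT HFD without overlap, and WT chow spanned all the others. The 10-library difference between KO HFD and KO chow was −0.70 (SE 0.17, adjusted p = 0.0429, limma), and over 12 libraries its adjusted p was 0.692. The call was lost when any 1 of 9 of the 10 libraries was left out, with an adjusted p of 0.0509 to 0.159, and with median-of-ratios scaling (0.0707). Over 12 libraries 0 of 14 pan-endothelial genes and 0 of 13 further sinusoidal genes tested passed in any of the comparisons, and over 10 libraries the counts were also 0. The pan-endothelial genes had a median difference of 0.10 in KO HFD relative to KO chow, and the further sinusoidal genes one of −0.20.

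On chow the outcome turned on the WT chow libraries. In KO chow relative to WT chow over 12 libraries, 9 of the 10 genes had higher means (8 with median-of-ratios scaling, where Stab1 stood at −0.07), with a median log2 difference of 0.60, against 0.08 over all genes. Without WT chow 2 that median was 0.97, and without WT chow 3 it was 0.22. Pecam1 was the exception, at 4.0 ± 0.65 FPKM in KO chow and 8.74 ± 8.54 FPKM in WT chow (log2 difference −0.61). By limma 0 of the 10 passed, with 1 at an unadjusted p under 0.05, beside 0% of all genes (2584 at an unadjusted p under 0.05, and 0 called by limma-voom on recovered reads). Fcgr2b had the largest difference, at 15.2 ± 3.13 FPKM in KO chow and 6.02 ± 4.59 FPKM in WT chow (1.46, SE 0.47, adjusted p = 0.195, limma). Without WT chow 1, the highest of the 3 for this gene, the difference was 1.96 and passed (adjusted p = 0.00709, limma), as did 2981 genes in all. WT chow then rested on WT chow 2 and 3, whose hepatocyte sums of 29388 and 19.0 FPKM lay below those of every other library. Fcgr2b was also the 1 gene whose groups did not overlap, which held for 12.4% of all genes in the higher direction. Over 10 libraries the median was 0.34, against 0.06 over all genes, 0 of the 10 passed with 0 at an unadjusted p under 0.05, and 1 gene in all passed (0.00816%). Pecam1 then differed by 0.37, with its sign turned, and Fcgr2b by 0.47 (SE 0.26, adjusted p = 1). Lyve1 had the largest 10-library difference, 0.94 (SE 0.42), against a WT chow library with 13 reads of it.

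High fat diet in wild type was compared with the same WT chow libraries, so its values share their spread with those just given. In WT HFD relative to WT chow 8 of the 10 genes had higher means over 12 libraries, with a median of 0.70, against 0.02 over all genes, and Kdr (−0.01, and 0.11 when rescaled to TPM) and Pecam1 (−0.57) did not. Without WT chow 2 the median was 1.10, and without WT chow 3 it was 0.32. By limma 0 of the 10 passed, with 1 at an unadjusted p under 0.05, beside 0% of all genes (1807 unadjusted, and 0 by limma-voom). Fcgr2b averaged 15.2 ± 3.61 FPKM in WT HFD and 6.02 ± 4.59 FPKM in WT chow (1.46, SE 0.47, adjusted p = 0.307, limma), and Stab2 averaged 4.01 ± 0.70 FPKM in WT HFD and 1.92 ± 1.66 FPKM in WT chow (1.01, SE 0.46, adjusted p = 0.341). These 2 had groups that did not overlap, as 6.82% of all genes had in the higher direction. Clec4g had a larger log2 difference than either, at 19.2 ± 7.79 FPKM in WT HFD and 11.3 ± 9.89 FPKM in WT chow. Its groups overlapped, and its value in WT chow 3 was 0. Without WT chow 1, where WT chow rests on WT chow 2 and 3, Fcgr2b differed by 1.96 and passed (adjusted p = 0.00827, limma), with 2435 genes in all. Over 10 libraries the 10 genes had a median of 0.35, against 0.01 over all genes, and 10 of 10 had positive differences, those of Kdr (0.41) and Pecam1 (0.41) included. Of these 0 passed, with 1 at an unadjusted p under 0.05, beside 0.00816% of all genes. Since each of the 10 differences is against the 1 library WT chow 1, in which 9 of the 10 genes lie at or below their median, all 10 directions rest on that library.

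The interaction of diet and genotype label is the HFD difference under the KO label minus that in wild type. It was negative for 9 of the 10 genes over 12 libraries and for 10 of 10 over 10 libraries. Over 10 libraries its WT chow side is the 1 library WT chow 1, in which 9 of the 10 genes lie below their median. The 10 directions therefore share that library. All genes of 5 kb or more, the class of Kdr, Ptprb, Stab1 and Stab2, had a median interaction of −0.48 over 12 libraries and −0.42 over 10. For all genes under 1.5 kb these medians were 0.39 and 0.35, and the part of gene length was not tested. The median of the 10 genes was −0.97 over 12 libraries, against −0.10 over all genes. It was −0.54 over 10 libraries, against −0.08, and −0.47 without WT chow 3 alone. No member of the 10 passed in either (limma; 1 and 2 at an unadjusted p under 0.05), beside 0.122% and 0.0816% of all genes. Fcgr2b had the largest interaction over 12 libraries, −1.74 (SE 0.66, adjusted p = 0.289, limma). Without WT chow 1, where WT chow rests on WT chow 2 and 3, it was −2.23 (adjusted p = 0.0197, limma), with 2265 genes past in all. Lyve1 had the largest interaction over 10 libraries, −1.13 (SE 0.52). For Kdr it was −0.68 over 12 libraries and −1.10 (SE 0.43, adjusted p = 0.463) over 10.

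Genes outside the 10 whose pattern was most like their mean over the 10 libraries included Slc43a3 (Pearson's r of 0.972), a solute carrier of purine bases, Gpr116 (0.926), an adhesion receptor, Arhgef15 (0.923), a guanine nucleotide exchange factor, and Flt1 (0.917), a VEGF receptor. These 4 were among the 5 highest of the protein-coding genes tested, and no p is given since they were picked for this value. Slc43a3 stood at 5.01, 4.58 and 4.24 FPKM in KO HFD, 6.05, 7.10 and 4.76 in KO chow, 7.54, 5.65 and 5.14 in WT HFD and 3.98, 1.84 and 4.65 in WT chow. Its order among the 10 libraries had WT HFD 1 and KO chow 2 highest and WT chow 1 lowest. Flt1 stood at 0.74, 0.61 and 0.37 FPKM in KO HFD, 1.10, 1.39 and 0.54 in KO chow, 0.99, 0.90 and 0.68 in WT HFD and 0.64, 0.44 and 9.82 in WT chow. Like Kdr, Flt1 was higher in WT chow 3 than in any other library, while Slc43a3 was not. For single members the closest gene was Slc43a3 for Stab1 (0.926) and Fcgr2b (0.948), Gpr116 for Oit3 (0.944), Cd300lg, an endothelial glycoprotein, for Dnase1l3 (0.916), F8, the gene of coagulation factor VIII, for Pecam1 (0.943), and Atxn7l1 for Kdr (0.963). The remaining 4 were Tmem253 for Ptprb (0.981), Pcdhga12 for Stab2 (0.952), Exoc3l for Clec4g (0.899) and Ptger1 for Lyve1 (0.968).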

How the data were processed

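The FPKM values of 35275 genes in 12 mouse liver libraries were computed by the authors, and the deposited table also holds gene lengths and coordinates (file headers). The submitters' processing notes name CASAVA, TopHat and STAR, the counter HTSeq in release 0.6.1, DESeq2 with the number 2, and the builds GRCm38 and mm10, without saying which aligner, annotation release or strand setting gave the values. Each FPKM multiplied by gene length was a whole multiple of a library's smallest step (100% of values, within 0.1 of a read), so reads could be recovered. They came to 15705196 to 20311766 per library, and floors of 3 reads cover counting error only.

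The 12251 genes with a mean of at least 0.5 FPKM were tested with limma 3.58.1 in R 4.3.3 (moderated with a mean-variance trend) on log2(FPKM + 1), a scale that understates changes of low genes, with 4 group means, Benjamini-Hochberg adjustment and a threshold of 0.05. All 10 genes passed the filter. limma-voom on the recovered reads was an alternative, as were pseudocount 0.1, no filter or a mean of at least 2 FPKM, TPM and median-of-ratios scaling, a replicate block, only the groups compared, each library left out, and the fits without WT chow 2 and 3 (10 libraries) or also without KO HFD 1 (9 libraries). The leave-one-out and scaling checks of the 10-library fit and the length classes were added after seeing the data. The 12-library comparison of KO HFD with KO chow was tried on simulated counts with a fixed spread, no deviant libraries and no length trend. The 10-library fit and limma-voom were not tried in this way. The genes, marker lists and tests were chosen with earlier results of these data known. All 10 genes are named; of the lists, up to 4 genes past the threshold, and the 5 genes most like the mean, or 1 per gene, by Pearson's r over 10 libraries. Of those 5, 1 is not reported here. Figures were drawn with matplotlib 3.10.9 (Python 3.11.15). Nothing in the labels says whether replicates were separate animals beyond the design text's term, so p-values measure the spread between these libraries. Promoter sequences were available for 5 of the 10 genes.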

Additional observations from a re-analysis of the deposited data

Results flagged for a closer look

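Fcgr2b, the Fc receptor gene, differed between the diets in opposite directions under the genotype labels. Mean FPKM in HFD minus chow was −2.96 under the KO label, with every KO HFD library below every KO chow library. Such a separation downward held for 21.6% of all genes. In wild type the difference was 9.20, with every WT HFD library above every WT chow library, which held for 6.82% of all genes. The WT chow mean includes WT chow 3 at 1.35 FPKM, while WT chow 1 stood at 10.5 FPKM. By limma the interaction itself, −1.74 on the log2 scale (SE 0.66, adjusted p = 0.289), did not pass, and over the 10 libraries without WT chow 2 and 3 it was −0.74 (SE 0.32, adjusted p = 0.484). Sums of hepatocyte and adipocyte genes in WT chow 2 and 3 moved with the wild-type value, and their part in it was not tested.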

How the results depend on the processing

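Of 485 differences of the 10 genes under other settings, 472 kept their direction and their side of the threshold, and 13 reversed. Without WT chow 2 and 3, with or without KO HFD 1, Pecam1 turned to 0.37 in KO chow relative to WT chow and to 0.41 in WT HFD relative to WT chow, where Kdr turned to 0.41, and the Pecam1 interaction turned to −0.55 (−0.64 also without KO HFD 1). In WT HFD relative to WT chow Kdr was 0.062 with pseudocount 0.1, 0.11 with TPM and 0.080 with limma-voom. Stab1 in KO chow relative to WT chow was −0.069 with median-of-ratios scaling, and Clec4g in KO HFD relative to KO chow was −0.11 with TPM. Rescaling to TPM moved the median of all genes to 0.25 (KO chow relative to WT chow), −0.13 (KO HFD relative to WT HFD), 0.12 (WT HFD relative to WT chow), −0.23 (KO HFD relative to KO chow) and −0.37 (interaction).

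Counts of all genes past the threshold moved more. In KO chow relative to WT chow, 0 became 4 without a filter, 1 over 10 libraries and 3 over 9. For KO HFD relative to WT HFD, 19 became 3 with a mean of at least 2 FPKM. In WT HFD relative to WT chow, 0 became 1 over 10 libraries and 3 over 9. For KO HFD relative to KO chow, 19 became 31 without a filter, 3 with a mean of at least 2 FPKM, 951 over 10 libraries, 39 over 9 and 12 with limma-voom. For the interaction, 15 became 6 with pseudocount 0.1, 25 without a filter, 1 with a mean of at least 2 FPKM, 24 over 9 libraries and 0 with limma-voom. Lyve1 was not tested with a mean of at least 2 FPKM. Apart from the smaller sets of genes or libraries, the cause was not tested.

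With each library left out in turn, 567 of 600 differences of the 10 genes kept direction and call, and 30 reversed. The other 3, those of Fcgr2b without WT chow 1, came to pass with WT chow resting on WT chow 2 and 3. All-gene counts ran from 0 to 2981 (KO chow relative to WT chow), 0 to 2435 (WT HFD relative to WT chow) and 5 to 2265 (interaction), with 0 to 1 of the 10 genes past in each. In KO chow relative to WT chow the reversing differences ran from −0.033 to 2.11 for Clec4g, −0.37 to 0.80 for Kdr, −1.10 to 0.069 for Pecam1, −0.13 to 0.80 for Ptprb and −0.10 to 0.18 for Stab1. In WT HFD relative to WT chow they ran from −0.49 to 0.69 for Kdr, −1.05 to 0.12 for Pecam1, −0.34 to 0.59 for Ptprb and −0.034 to 0.25 for Stab1. Between KO HFD and WT HFD they ran from −0.38 to 0.21 for Clec4g, −0.46 to 0.11 for Dnase1l3 and −0.46 to 0.12 for Lyve1. Between KO HFD and KO chow they ran from −0.027 to 0.23 for Clec4g, −0.49 to 0.0039 for Dnase1l3, −0.32 to 0.26 for Lyve1 and −0.35 to 0.041 for Stab2. The Pecam1 interaction ran from −0.25 to 0.92.

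Over 10 libraries with 1 more left out, KO HFD relative to KO chow differed by −0.94 to −0.46 for Kdr, −0.95 to −0.53 for Ptprb and −0.75 to −0.61 for Vegfa. Same-numbered libraries of different groups did not deviate together (18 pairs, r from −0.504 to 0.131, 2 over 0.1), so the numbers were not taken as pairs. With the replicate block 0 of the 10 genes passed in any comparison, and all genes past the threshold numbered 0, 18, 0, 17 and, for the interaction, 4. Over 10 libraries the block left 31 genes in KO HFD relative to KO chow, 10 lower and 21 higher, and 0 of the 10. Over 10 libraries the Vegfa call was lost with the block (adjusted p = 0.0581, limma) and kept with TPM (0.0167) and limma-voom (0.0353). Limma-voom called 0 of the 10 genes in any comparison over 12 libraries. Lyve1, on 13 to 112 reads, is limited by depth.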
